A study of Schizosaccharomyces pombe with 4 samples.

Results

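The genes of pre-mRNA splicing were followed in fission yeast, Schizosaccharomyces pombe, that lacked red2. They were 66 of the 4997 genes on the array, taken by words in the deposited gene descriptions: splicing, spliceosomal, snRNP or small nuclear ribonucleoprotein, with protein splicing left out. Read one by one, 59 descriptions named pre-mRNA splicing, a spliceosomal particle or a splicing factor, and 7 named another role. Of the 66 descriptions, 37 were hedged as putative, probable, hypothetical or similar to a known gene. The deposited gene length, start to end, was 1273.5 bp at the median of the 66 and 1194 bp at the median of all array genes.

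The groups were red2 deletion (red2∆, strain SP744, 2 arrays) and wild type (strain FY12806, 2 arrays). Both were grown to log phase at 30 °C in YEA, a rich medium with yeast extract, 3% glucose and 75 mg per litre adenine. Total RNA was labelled with Cy3 and read on a 1-colour oligonucleotide array. The sources used here do not give how the deletion was made or any further marker of either strain. The title and strain of the second deletion array say red2, but its description says that red3 is lacking; it was kept with the red2 deletion. No label says that replicate arrays are separate cultures. A p-value therefore reflects the spread between these arrays alone, and that spread may be technical. Splicing is the removal of introns from new transcripts by the spliceosome, which is built from small nuclear ribonucleoproteins (snRNPs) named U1, U2, U4, U5 and U6 after their RNA. Each RNA carries a ring of small Sm proteins, or of related LSm proteins on U6, and further proteins that recognise the ends of the intron and the branch site. ATP-dependent RNA helicases then unwind and rearrange these RNAs at each step, and in fission yeast many genes have introns.

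Levels here are log2 of the deposited intensity, averaged over the 2 blocks of values that each gene has per array, and they are relative to the other RNA on the same array. The median intensity was 22141 and 22158.1 on the deletion arrays, against 21231.7 and 21304.1 on the wild-type arrays. Arrays of 1 group correlated across genes with r = 0.996 for the deletion and r = 0.997 for wild type, against 0.934 to 0.945 between groups. A number in the column headers is shared by both arrays of a group and differs between the groups, so that number, whatever it marks, and the genotype cannot be told apart. No description names red2, so the deleted gene could not be looked up. One gene, a serine- and proline-rich protein on chromosome I (2603271 to 2604926), was nearly lost: its level was 5.39 and 4.75 in the deletion, against 14.93 and 15.05 in wild type. Every fold change below is deletion over wild type and is tested with limma, adjusted over all 4997 genes at 0.05. Since the change followed gene length across the whole array, the change of each named gene is given again with a smooth length trend removed.

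The splicing genes did not move as 1 body. Of the 66, 28 rose and 24 fell in the deletion, while 14 did not pass the test. Over all array genes the shares were 34% higher and 29.8% lower, so calls in both directions were somewhat more frequent in the set, a difference that was not tested. The median log2 fold change of the 66 was 0.09, beside 0.01 over all array genes, and their range was -1.24 to 0.86. With the length trend removed, 20 of the 66 were higher and 26 lower, with a median of -0.01; over all genes 28.3% were then higher and 35.4% lower, with a median of -0.04. Of the splicing genes 18 were called higher and 21 lower in both fits, 13 lost their call, 7 gained one and 0 were called in opposite directions. The sign of the change turned for 7 of the 66 when the trend was removed.

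Changes were moderate in size. The values of the 2 groups did not overlap for 60 of the 66 genes and for 4229 of the 4997 array genes. A change of at least 1.5-fold without overlap was seen for 8 splicing genes upward and 13 downward, where 10.1% of all array genes lay that far up and 9.85% that far down. At least 2-fold and past the test, there were 0 splicing genes upward and 4 downward, beside 2.72% of all array genes upward and 2.54% downward. The 2 deletion arrays differed by a median of 0.09 and by at most 0.33 for a splicing gene, and the 2 wild-type arrays by a median of 0.05 and at most 0.32.

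**Figure D1:**
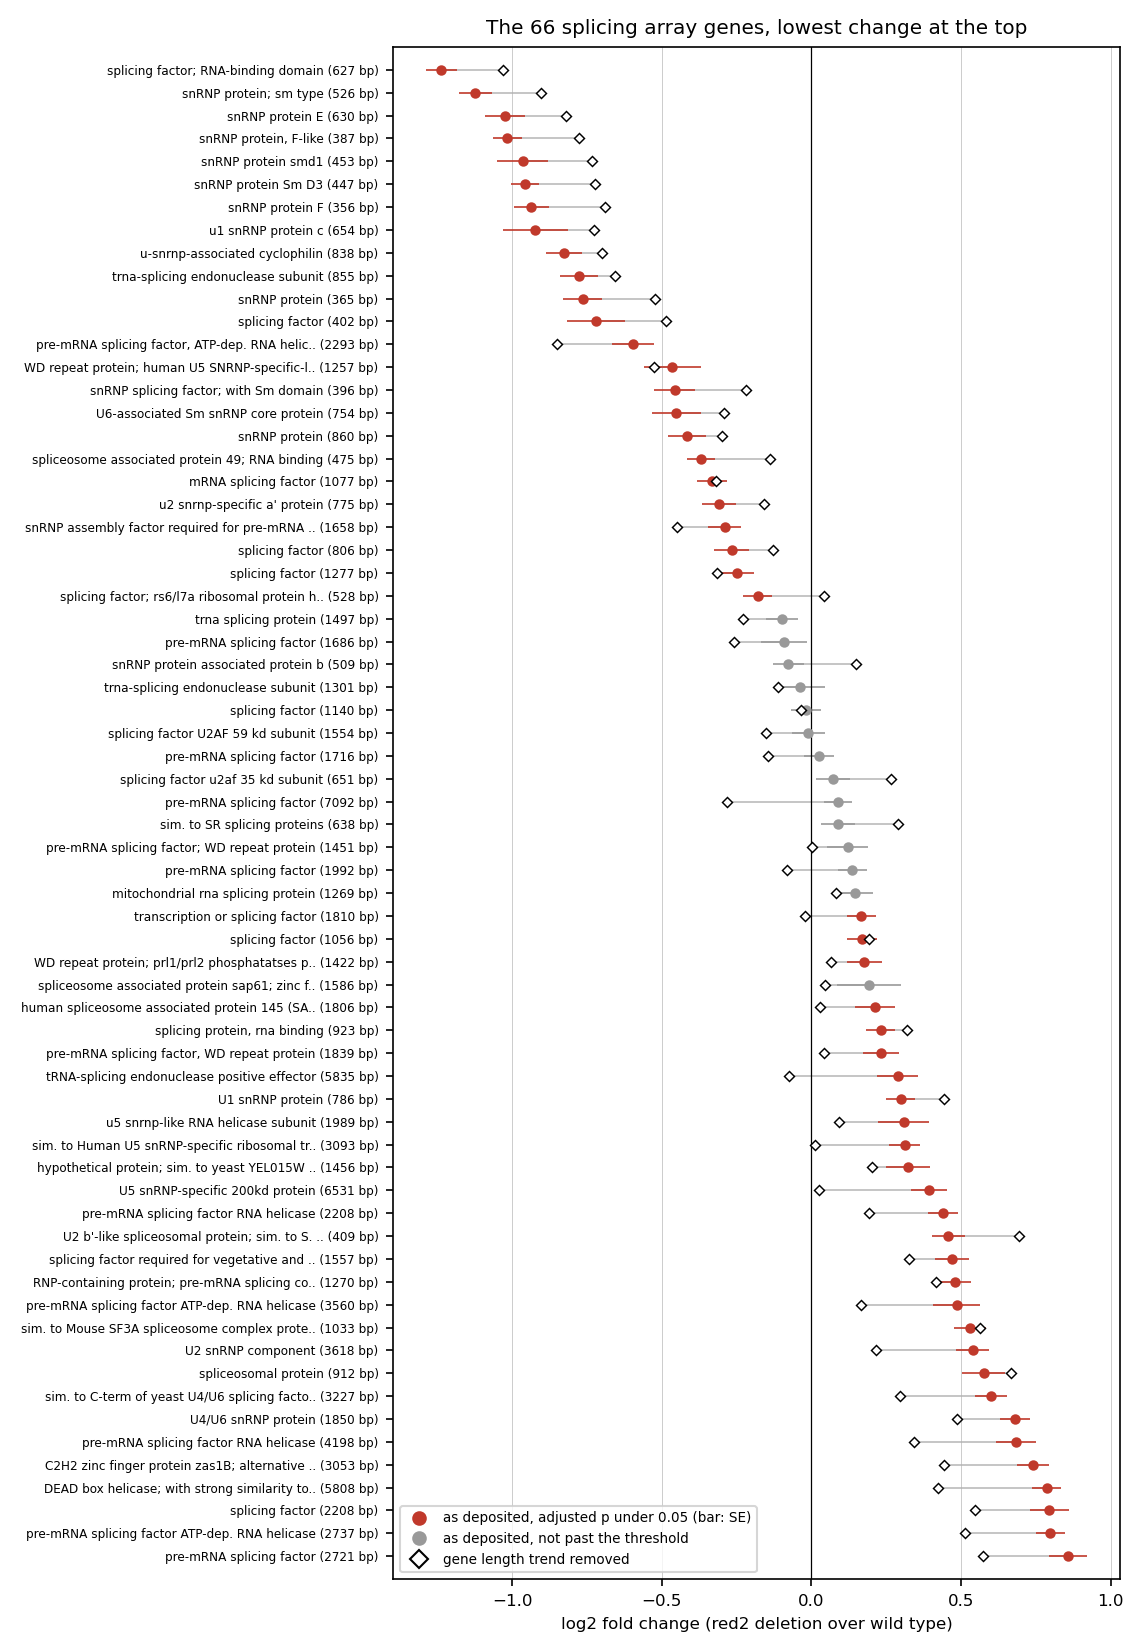
Log2 fold change (red2 deletion over wild type, n = 2 arrays each) of the 66 splicing genes, ordered from the lowest at the top. Filled points are the values as deposited with limma's standard error, red where the adjusted p is under 0.05 and grey otherwise; open diamonds show the same gene with the length trend removed. Most proteins of the Sm ring stand near the top and most helicase genes in the lower part. Exceptions are protein b at -0.08 and a helicase gene of 2293 bp at -0.60. Removing the trend moves short genes up and long genes down.

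Values differed between the roles named in the descriptions. Most genes of the snRNP core were lower in the deletion. The group holds 11 genes described as Sm proteins or small nuclear ribonucleoproteins with no U number, a rule set after values were seen. Of these, 10 fell, 0 rose and 1 did not pass. Their median log2 fold change was -0.94 and their range -1.12 to -0.08. The genes whose description names a helicase went the other way, with 6 of 7 higher and 1 lower and a median of 0.49. In the fit without the length trend the same 10 core genes were lower, with a median of -0.69, and 4 of the same 6 helicases were higher and the same 1 lower, with a median of 0.19. Over all array genes 34% were higher and 29.8% lower, or 28.3% and 35.4% without the length trend. The core genes are short, 356 to 860 bp, and the helicases long, 1989 to 5808 bp. Of all array genes of 300 to 700 bp 54.7% were lower, and of those from 2000 bp 59.5% were higher. Of 28 other RNA helicase genes 21 were higher and 3 lower, so the rise was not confined to splicing helicases. A test of the difference between the groups of genes was not run.

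**Figure D2:**
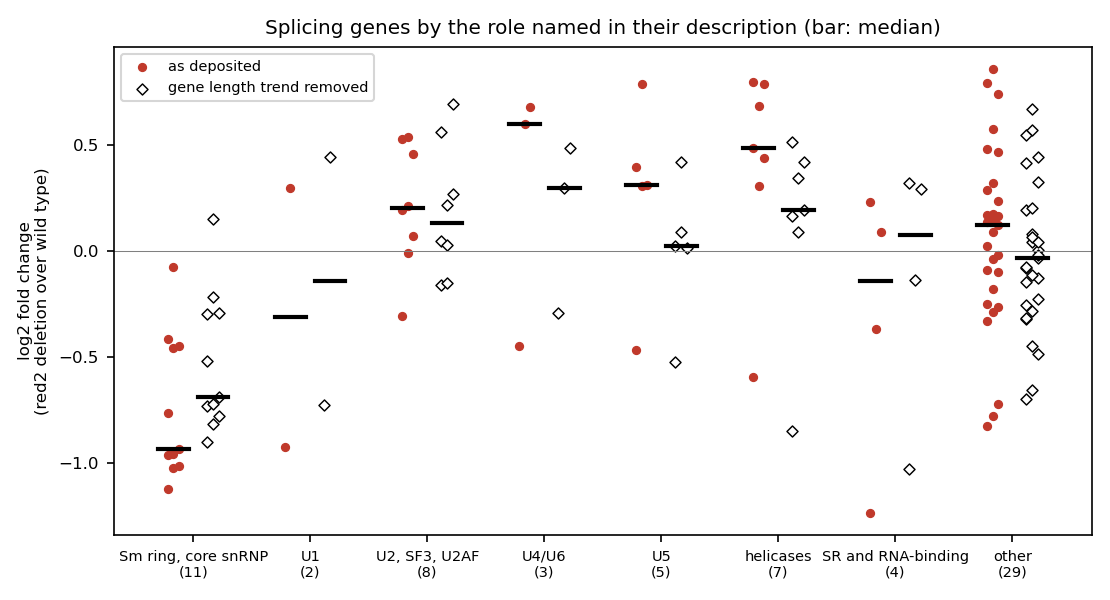
Log2 fold change (red2 deletion over wild type) of each splicing gene by the role its description names, as deposited (red) and with the length trend removed (diamonds); bars are medians and the number of genes is under each label. A gene named in 2 roles is drawn in both. The 11 core snRNP genes lie at or below -0.08 as deposited, and the helicases lie above 0 apart from 1 at -0.60.

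The Sm proteins bind the small nuclear RNAs as a closed ring and are needed for the particles to be assembled. The gene described as small nuclear ribonucleoprotein, sm type (chromosome I, 4225225 to 4225750, 526 bp) stood at 13.45 and 13.55 on the deletion arrays, against 14.64 and 14.61 on the wild-type arrays. Both deletion arrays lay about a whole log2 unit below both wild-type arrays. This made it 2.18-fold lower in the deletion (log2 fold change -1.12 ± 0.06, limma SE; limma adjusted p = 5.98e-05). The change was -0.90 with the length trend removed.

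The ring proteins E and F gave the same picture. The gene of protein E (chromosome II, 1723582 to 1724211) had levels of 13.55 and 13.72 on the deletion arrays, against 14.67 and 14.65 in wild type, a 2.03-fold decrease (limma adjusted p = 0.00012). The gene of protein F (chromosome II, 2644768 to 2645123) had 14.04 on each deletion array, against 15.04 and 14.91 in wild type, a 1.91-fold decrease (limma adjusted p = 0.000101). A further gene described as F-like (chromosome I, 3910415 to 3910801) had 13.30 and 13.35 in the deletion, against 14.34 on each wild-type array, a 2.02-fold decrease (limma adjusted p = 5.76e-05). The groups did not overlap for any of these 3 genes. Without the length trend their log2 fold changes were -0.82 for protein E, -0.69 for protein F and -0.78 for the F-like protein, each past the test. Protein E's gene overlaps a longer array gene.

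The D proteins pair with other ring members during assembly. The smd1 gene (chromosome I, 4481739 to 4482191), which encodes Sm D1, had levels of 13.55 and 13.78 in the deletion, against 14.66 and 14.60 in wild type. The gene of Sm D3 (chromosome II, 1661260 to 1661706) had 12.79 and 12.81 in the deletion, against 13.74 and 13.77 in wild type. For both, the 2 deletion arrays were the lower ones by a margin wider than the spread within either group. The decrease was 1.95-fold for smd1 (limma adjusted p = 0.000272) and 1.94-fold for Sm D3 (limma adjusted p = 6.09e-05), and with the length trend removed the log2 fold changes were -0.73 and -0.72.

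Of 2 genes described only as small nuclear ribonucleoprotein, which lie close together on chromosome II, the one at 3380415 to 3380779 fell further. It had 12.68 and 12.83 in the deletion, against 13.55 and 13.49 in wild type (log2 fold change -0.76 ± 0.06; limma adjusted p = 0.000239; length trend removed -0.52). The one at 3382450 to 3383309 had 13.05 on each deletion array, against 13.39 and 13.54 in wild type (log2 fold change -0.42 ± 0.06; limma adjusted p = 0.00219; length trend removed -0.30). Neither pair of groups overlapped, and the difference between the 2 genes was not tested.

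Decreases were also seen for 2 more genes with an Sm domain named. The splicing factor with Sm domain on chromosome III (1822327 to 1822722) had 13.71 and 13.85 in the deletion, against 14.19 and 14.28 in wild type (log2 fold change -0.46; limma adjusted p = 0.00184). The U6-associated Sm snRNP core protein (chromosome III, 2148074 to 2148827) had 13.64 and 13.87 in the deletion, against 14.23 and 14.18 in wild type (log2 fold change -0.45; limma adjusted p = 0.00434). Their values were -0.22 and -0.29 with the length trend removed, both still past the test.

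The exception in the ring was the small nuclear ribonucleoprotein associated protein b, as Sm B is described here (chromosome I, 3339224 to 3339732, 509 bp). It stood at 14.75 and 14.69 in the deletion, against 14.77 and 14.81 in wild type. The groups did not overlap but lay close together, and the log2 fold change of -0.08 ± 0.05 did not pass (limma adjusted p = 0.232). The value without the length trend was 0.15 (limma adjusted p = 0.0685), and with a narrower smoothing of that trend it was 0.18 and passed as higher (limma adjusted p = 0.0373). Of the 11 core genes it was the 1 whose sign turned under these settings.

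**Figure D3:**
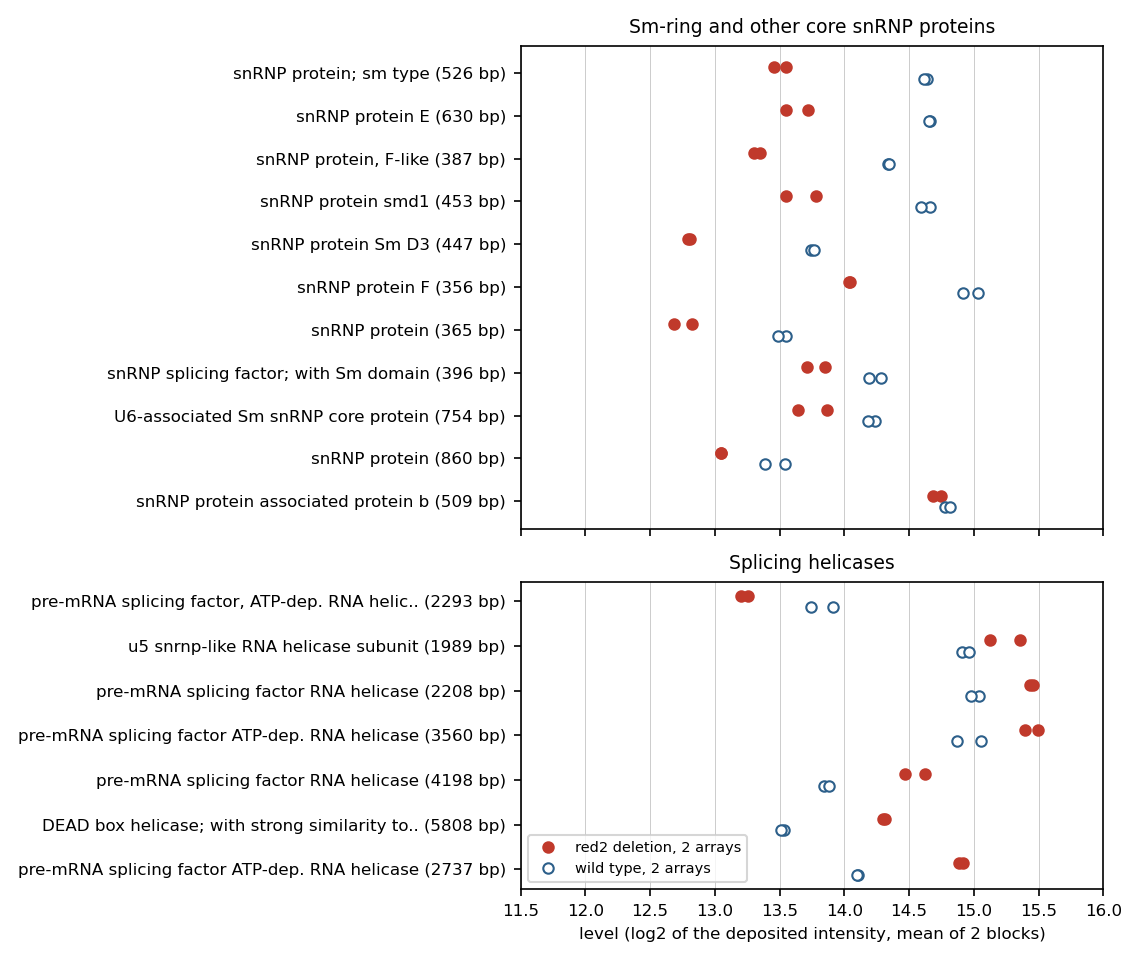
Level of each core snRNP gene (top) and splicing helicase gene (bottom) on every array, as log2 of the deposited intensity; filled red points are the 2 red2 deletion arrays and open blue points the 2 wild-type arrays. Among the core genes the red points lie left of the blue ones, by about 1 log2 unit for the upper rows and hardly at all for protein b, and among the helicases they lie to the right in 6 of 7 rows. Levels are to be compared along a row, not between rows.

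The LSm ring, which binds the end of U6 RNA, was met outside the 66 as well. The array has 2 further genes described as Sm-like and associated with U6 RNA, whose descriptions lack the words that chose the set, and both fell. One (chromosome II, 3260382 to 3260819) had 12.65 and 12.74 in the deletion, against 14.19 and 14.22 in wild type, which is 2.85-fold lower (limma adjusted p = 2.53e-05). The other (chromosome II, 1781204 to 1781751) had 13.28 and 13.51 in the deletion, against 14.79 and 14.73 in wild type, which is 2.58-fold lower (limma adjusted p = 0.0001). Their decreases were larger than that of any of the 66 genes, with log2 fold changes of -1.51 and -1.37, or -1.28 and -1.15 with the length trend removed.

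Short genes tended to be lower across the whole array, and the core snRNP genes are short, 356 to 860 bp. Of the 1006 array genes of 300 to 700 bp, 54.7% were lower in the deletion and 180 were higher, with a median log2 fold change of -0.22. Of the 17 splicing genes in that class, 13 were lower and 1 was higher, with a median of -0.76. The 8 of them that are not core snRNP genes had 5 lower and 1 higher and a median of -0.27, near that of the class. Of the 980 array genes of 2000 bp or more, 59.5% were higher, with a median of 0.24, and of the 15 splicing genes in that class 13 were higher and 1 was lower, with a median of 0.54. The 34 splicing genes of intermediate length were 14 higher, 10 lower and 10 not called, with a median of 0.13. All 2911 array genes of that length were 916 higher, 825 lower and 1170 not called, with a median of 0.004.

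Across the 66 genes, the log2 fold change followed gene length with a Spearman rho of 0.70, beside 0.44 over all array genes. After the trend of all genes was removed, rho was 0.41 across the 66 and 0.01 across all array genes. These are descriptions over genes that share the same 4 arrays. What makes the change follow length on these arrays was not tested.

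**Figure D4:**
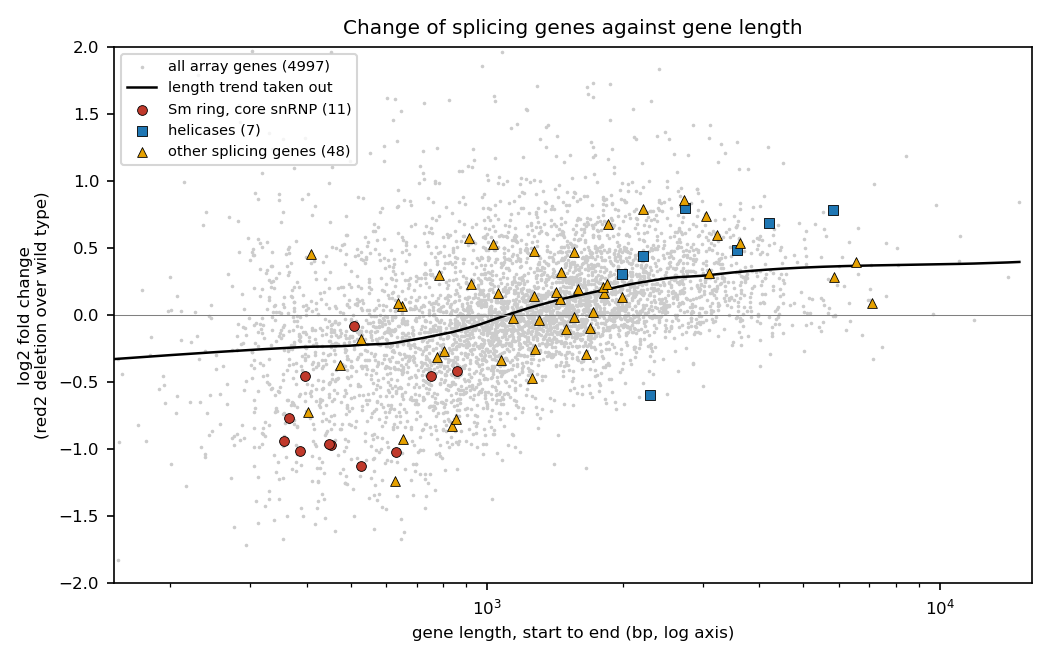
Log2 fold change (red2 deletion over wild type) against gene length on a log axis for all array genes (grey), core snRNP genes (red circles), helicases (blue squares) and the other splicing genes (triangles); the black line is the length trend that was removed. The plot leaves out 42 array genes beyond its limits of -2 and 2 or of length, none of them a splicing gene. Most of the core snRNP genes lie well below the line at short lengths, and 6 of the 7 helicases lie above it, by 0.09 to 0.51, with 1 below.

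The helicases of splicing use ATP to remodel the RNA pairs of the spliceosome and to release its products. The ATP-dependent RNA helicase gene on chromosome II at 2125337 to 2128073 had 14.88 and 14.92 in the deletion, against 14.11 and 14.10 in wild type, and was 1.74-fold higher (log2 fold change 0.80 ± 0.05; limma adjusted p = 8.86e-05; length trend removed 0.51). A DEAD box helicase with strong similarity to Brr2 of budding yeast, which unwinds the paired U4 and U6 RNAs (chromosome II, 3703146 to 3708953), had 14.32 and 14.30 in the deletion, against 13.54 and 13.51 in wild type. It was 1.72-fold higher (limma adjusted p = 9.22e-05), with a log2 fold change of 0.79 and of 0.42 once the length trend was removed. In both genes the deletion arrays lay close together and stood clear of wild type.

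Another RNA helicase, on chromosome III at 1017094 to 1021291, had 14.62 and 14.47 in the deletion, against 13.84 and 13.88 in wild type (log2 fold change 0.68; limma adjusted p = 0.00037; length trend removed 0.34). The helicase at 2238841 to 2241048 of chromosome II had 15.45 and 15.44 in the deletion, against 15.04 and 14.97 in wild type (log2 fold change 0.44; limma adjusted p = 0.000663; length trend removed 0.19). The groups did not overlap in either gene, and both passed in both fits.

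For 2 helicases the call rested on the length trend. The ATP-dependent helicase on chromosome I at 1217149 to 1220708 had 15.40 and 15.50 in the deletion, against 14.87 and 15.06 in wild type. Its log2 fold change of 0.49 passed (limma adjusted p = 0.00255), but the 0.16 left with the trend removed did not (limma adjusted p = 0.118). The U5 snRNP-like RNA helicase subunit (chromosome III, 857153 to 859141) had 15.36 and 15.12 in the deletion, against 14.91 and 14.96 in wild type, and went likewise, with 0.31 (limma adjusted p = 0.0203) and 0.09 with the trend removed (limma adjusted p = 0.346).

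The helicase that fell was that of chromosome I at 2118229 to 2120521, at 13.20 and 13.26 in the deletion, against 13.74 and 13.91 in wild type. It was 1.51-fold lower (log2 fold change -0.60 ± 0.07; limma adjusted p = 0.000732), and at 2293 bp it lay against the trend for its length, so that the value grew to -0.85 with the trend removed. Of the 15 splicing genes of 2000 bp or more it was the 1 that fell. Of 28 other array genes described as RNA helicases, 21 were higher and 3 lower with a median of 0.27, and 9 were higher and 6 lower with the length trend removed. They were taken by those words alone and not sorted by whether they act in splicing.

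U1 marks the start of the intron, and its 2 genes here went opposite ways. Protein C of U1, which steadies its pairing with the start of the intron (chromosome II, 900938 to 901591), had 12.44 and 12.78 in the deletion, against 13.52 and 13.54 in wild type. It was 1.90-fold lower (log2 fold change -0.92 ± 0.11; limma adjusted p = 0.000733; length trend removed -0.73), and its deletion arrays were further apart than those of any other splicing gene. A putative U1 snRNP protein (chromosome I, 2453520 to 2454305) had 13.88 and 13.89 in the deletion, against 13.57 and 13.61 in wild type. It rose, with a log2 fold change of 0.30 (limma adjusted p = 0.00265) and 0.44 with the length trend removed.

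U2 pairs with the branch site, helped by the SF3 proteins and by U2AF, which reads the end of the intron. Of 8 genes in this group 4 rose, 1 fell and 3 did not pass, with a median log2 fold change of 0.20, or of 0.13 with the length trend removed. The U2 snRNP component of chromosome I (4294371 to 4297988) had 15.03 and 15.01 in the deletion, against 14.53 and 14.44 in wild type (log2 fold change 0.54; limma adjusted p = 0.00042; length trend removed 0.21). A gene similar to mouse SAP62, a subunit of SF3A (chromosome II, 3764880 to 3765912), had 14.06 and 13.98 in the deletion, against 13.49 on each wild-type array. It kept its size in both fits, with 0.53 (limma adjusted p = 0.000417) and 0.56 with the length trend removed.

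The gene similar to budding yeast MSL1, described as U2 b'-like (chromosome II, 1333691 to 1334099, 409 bp), had 11.14 on each deletion array, against 10.73 and 10.63 in wild type. It was the splicing gene of lowest intensity, and it rose although short genes tended to fall (log2 fold change 0.46; limma adjusted p = 0.00081; length trend removed 0.69). The deposited annotation gives it the same protein accession as a gene described as spliceosomal protein elsewhere on chromosome II (1288220 to 1289131). That gene had 14.38 and 14.56 in the deletion, against 13.91 and 13.87 in wild type (log2 fold change 0.58; limma adjusted p = 0.00092; length trend removed 0.67). Whether the probes of the 2 genes share sequence was not tested.

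The subunits of U2AF did not pass as deposited. The 59 kd subunit, the larger of the pair, had 14.45 and 14.55 in the deletion, against 14.50 and 14.52 in wild type, with overlapping groups (log2 fold change -0.01; limma adjusted p = 0.881). The 35 kd subunit had 13.07 on each deletion array, against 13.06 and 12.95 in wild type (log2 fold change 0.07; limma adjusted p = 0.31). Once length was taken out, the larger was called lower, at -0.15 (limma adjusted p = 0.0489), and the smaller higher, at 0.27 (limma adjusted p = 0.00751). The A' protein of U2 binds U2 RNA and fell slightly, at 14.21 and 14.33 in the deletion, against 14.57 and 14.58 in wild type (log2 fold change -0.31; limma adjusted p = 0.00454; length trend removed -0.16). With a narrower smoothing of the trend it was at -0.13 and no longer passed (limma adjusted p = 0.0564).

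Of 3 genes named for U4 and U6, 2 rose and the U6-associated core protein given above fell. The U4/U6 snRNP protein of chromosome I (4365288 to 4367137) had 13.73 and 13.78 in the deletion, against 13.09 and 13.05 in wild type, and was 1.60-fold higher (limma adjusted p = 0.000157). A gene similar to PRP24, which in budding yeast helps U4 and U6 to pair (chromosome II, 4095059 to 4098285), had 14.82 and 14.74 in the deletion, against 14.17 and 14.18 in wild type, and was 1.52-fold higher (limma adjusted p = 0.000272). Their log2 fold changes were 0.68 and 0.60, and 0.49 and 0.29 with the length trend removed. The first overlaps another array gene that is longer.

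The U5 snRNP sits at the centre of the spliceosome and holds both exons. Of 5 genes named for it, 4 rose and 1 fell, but with the length trend removed 1 rose, 1 fell and 3 did not pass. The Brr2-like helicase and the U5 snRNP-like helicase subunit, counted above as helicases, are among these 5. The Brr2-like gene was the 1 that rose with the trend removed, at 0.42. The U5 snRNP-specific 200kd protein, a gene of 6531 bp, had 15.57 and 15.46 in the deletion, against 15.08 and 15.16 in wild type. Its log2 fold change of 0.39 (limma adjusted p = 0.00209) became 0.03 with the trend removed. Its description names no helicase, so the word rule did not count it with the helicases above. That rule does not settle whether its protein is a helicase. The gene similar to the human U5 translocase of EF-2 type had 15.59 and 15.52 in the deletion, against 15.22 and 15.26 in wild type, and its 0.31 (limma adjusted p = 0.00296) became 0.01. The WD repeat protein similar to a human U5 protein (chromosome II, 4363639 to 4364895) fell in both fits. It had 13.68 and 13.96 in the deletion, against 14.25 and 14.32 in wild type (log2 fold change -0.47; limma adjusted p = 0.00657; length trend removed -0.53).

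RNA-binding splicing factors bind exons and introns and help to choose the sites, and 4 genes were grouped here by words in their descriptions. The lowest value of all 66 splicing genes lay here: the splicing factor with an RNA-binding domain on chromosome II at 2009147 to 2009773 had 12.01 and 12.08 in the deletion, against 13.29 and 13.27 in wild type. It was 2.36-fold lower (log2 fold change -1.24 ± 0.05; limma adjusted p = 3.95e-05), and 2.04-fold lower with the length trend removed. A spliceosome associated protein described as RNA-binding, on chromosome I at 2981567 to 2982041, had 14.49 on each deletion array, against 14.86 on each wild-type array. Its log2 fold change of -0.37 passed (limma adjusted p = 0.00097), while the -0.14 left without the trend just missed the threshold (limma adjusted p = 0.0505). Other genes described as spliceosome associated proteins were counted with U2 above. The word rule does not settle whether this one belongs with them.

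The RNA-binding splicing protein of chromosome II at 3321962 to 3322884 rose, with 15.53 and 15.55 in the deletion, against 15.28 and 15.34 in wild type (log2 fold change 0.23; limma adjusted p = 0.00773; length trend removed 0.32). Without the first wild-type array it no longer passed (0.20; limma adjusted p = 0.0773). The gene similar to SR proteins, which carry serine and arginine repeats, had 13.36 and 13.47 in the deletion, against 13.32 and 13.34 in wild type. It did not pass as deposited (log2 fold change 0.09; limma adjusted p = 0.218) and was called higher with the length trend removed, at 0.29 (limma adjusted p = 0.00298).

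The remaining 29 genes had no role named beyond splicing, or another role, and were mixed: 12 rose, 8 fell and 9 did not pass, with a median log2 fold change of 0.12. Over all array genes 34% were higher and 29.8% lower, or 28.3% and 35.4% with the length trend removed. Of the 29, 7 rose and 10 fell without that trend, with a median of -0.03, so their counts lay near those shares. The lowest was the U-snRNP-associated cyclophilin, a prolyl isomerase of the spliceosome (chromosome II, 1023468 to 1024305), with 12.49 on each deletion array, against 13.39 and 13.25 in wild type. It was 1.77-fold lower (limma adjusted p = 0.000157), with a log2 fold change of -0.83 and of -0.70 once the length trend was removed. A short splicing factor gene of chromosome III (2281805 to 2282206) had 11.47 and 11.75 in the deletion, against 12.33 on each wild-type array (log2 fold change -0.72; limma adjusted p = 0.0012; length trend removed -0.48).

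The largest rise of all 66 genes was also in this group. The pre-mRNA splicing factor of chromosome II at 2601068 to 2603788 had 14.20 and 14.09 in the deletion, against 13.24 and 13.34 in wild type, and was 1.81-fold higher (log2 fold change 0.86 ± 0.06; limma adjusted p = 0.000159). The splicing factor of chromosome I at 4015012 to 4017219 had 14.83 and 14.68 in the deletion, against 13.95 and 13.97 in wild type, and was 1.73-fold higher (limma adjusted p = 0.000217). Both stood clear of wild type on both arrays and had log2 fold changes of 0.57 and 0.55 once the length trend was removed.

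Several genes lay near 0 and did not pass the test. A splicing factor of chromosome II (2464385 to 2465524) had 14.57 and 14.55 in the deletion, against 14.55 and 14.61 in wild type (log2 fold change -0.02; limma adjusted p = 0.773; length trend removed -0.03). The brightest of the 66, a pre-mRNA splicing factor of chromosome I (4386451 to 4388166), had 15.65 and 15.68 in the deletion, against 15.67 and 15.61 in wild type, with a log2 fold change of 0.03 (limma adjusted p = 0.687). That gene was called lower once length was taken out, at -0.15 (limma adjusted p = 0.0473).

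The 7 genes with another role named were 3 higher, 1 lower and 3 not called, and without them the splicing set of 59 had 25 higher and 23 lower, or 19 and 24 with the length trend removed. A subunit of the tRNA-splicing endonuclease, which cuts introns out of tRNA precursors and is no part of the spliceosome (chromosome II, 2793256 to 2794110), fell. It had 13.40 and 13.55 in the deletion, against 14.25 on each wild-type array (log2 fold change -0.78; limma adjusted p = 0.000224; length trend removed -0.66). Another subunit of that enzyme, on chromosome III (94731 to 96031), had 13.83 and 13.97 in the deletion, against 14.04 and 13.84 in wild type, with overlapping groups (log2 fold change -0.04; limma adjusted p = 0.715; length trend removed -0.11).

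The zinc finger gene zas1B entered the set because its own transcript is described as alternatively spliced. It had 14.44 and 14.39 in the deletion, against 13.64 and 13.71 in wild type, and rose 1.67-fold (limma adjusted p = 0.000143; log2 fold change 0.74, or 0.44 with the length trend removed). The gene similar to budding yeast YEL015W had 14.98 and 14.78 in the deletion, against 14.55 and 14.56 in wild type. Its 0.32 passed (limma adjusted p = 0.0104) and the 0.20 left without the length trend did not (limma adjusted p = 0.0508).

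Further genes of splicing, and of the steps before and after it, were taken from words in their descriptions, and none of them belongs to the 66. The nuclear cap-binding complex, which binds the capped start of new transcripts, had its large subunit higher and its small subunit lower, with log2 fold changes of 0.41 and -0.37 (limma adjusted p = 0.00383 and 0.00192), or 0.15 and -0.20 with the length trend removed, where the large one no longer passed (limma adjusted p = 0.105). The RNA lariat debranching enzyme, which opens excised introns, had 14.62 and 14.66 in the deletion, against 14.66 and 14.58 in wild type, and did not pass (log2 fold change 0.02; limma adjusted p = 0.725; length trend removed -0.11). The prp4 kinase, a protein kinase that acts in splicing in fission yeast, had 14.46 and 14.47 in the deletion, against 14.71 and 14.85 in wild type, and fell (log2 fold change -0.32; limma adjusted p = 0.00597; length trend removed -0.46).

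Of the other genes with a prp name, prp12p/sap130, an SF3 protein, stood at 0.34 (limma adjusted p = 0.0182) and a gene similar to prp39 at 0.17 (limma adjusted p = 0.0222). They were at 0.01 and -0.07 without the length trend, and neither passed. Among 15 genes matched by the words for 3' end formation 5 were higher and 3 lower, with a median log2 fold change of 0.03. Those words, which include poly(A), also matched genes of poly(A) RNA export and transport and of poly(A) ribonucleases. Among 5 genes matched by the words for the RNA exosome 2 were higher and 2 lower, with a median of -0.06. The 4 genes matched for mRNA export had 1 higher and 2 lower with a median of -0.12. The 11 matched for RNA polymerase II had 3 higher and 4 lower with a median of 0.03. These counts stand beside the 34% of all array genes that were higher and the 29.8% that were lower. Without the length trend, the words for 3' end formation had 2 higher and 6 lower, and the exosome words 1 higher and 2 lower. Those for mRNA export had 0 higher and 3 lower, and those for RNA polymerase II 1 higher and 3 lower. The shares over all array genes were then 28.3% higher and 35.4% lower.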

How the data were processed

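The authors deposited linear intensity values that had been through RMA, per the submitters' processing notes, which name no version or settings. No build is named, so coordinates are printed as deposited. All 39976 values were equal between the table of all arrays and the pair tables. The ratio of deletion to wild type in the pair tables is the authors' deposited fold, used only as an alternative.

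Log2 intensities were averaged over the 2 blocks of a gene and fitted with limma 3.58.1 in R 4.3.3 (lmFit, eBayes, two-sided, Benjamini-Hochberg over 4997 genes, threshold 0.05), with genotype as the only term, no filter and no further normalization. Errors after ± are limma's standard errors. The length trend is a loess curve (span 0.5, or 0.2 when narrower) of the deviations of an array from the gene means, fitted on log2 gene length. On simulated data in which 200 of 4997 genes were changed, 100% were recovered at 1.5-fold and at 2-fold, with 15 false calls among 215. The simulated noise was independent between genes, of the fitted size and without a length trend, and far fewer genes were changed than were called in the data. The simulation therefore checks only that the fit runs as meant, and not how far the calls in the data can be trusted. Same-numbered arrays of the 2 groups, which the pair tables set against each other, did not deviate together (r = -0.04 across genes). Beyond the shared number, no sample label pairs them.

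The members and lists were chosen with earlier results of these data known. Named genes were the 12 largest changes each way, the extremes of each role group, up to 6 genes whose call went with the length trend, the 4 nearest to 0, up to 2 genes each way of each list (the text gives those closest to splicing), and the brightest and dimmest gene; U2AF 35 kd, the gene similar to SR proteins, the smaller core snRNP decreases and the helicase at 0.44 were named after their values were seen. Roles came from words in the descriptions: Sm was read as the start of a word other than small, and small nuclear ribonucleoproteins with no U number were put with the ring, after the values were seen. A gene could have 2 roles. The length classes, from 300 to 700 bp and from 2000 bp, were likewise set after the data were seen. A word list for U2AF and SR proteins outside the set matched 0 genes. Alternatives tried were quantile normalization, centring on array medians, adding 32 before log2, leaving out the dimmest 25% of genes, each block alone, the pair ratios, overlapping genes reduced to the longest (88 left out), a replicate block, each array left out, 2 other eBayes priors, stricter thresholds and stricter member rules. Only 2 arrays per group limit the precision.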

Additional observations from a re-analysis of the deposited data

How the results depend on the processing

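With the replicate number as a replicate block, 27 splicing genes were higher and 24 lower, and 1674 and 1466 of all array genes; among the 66 genes named by rule 1 lost its call, a helicase of RNA export (-0.15, limma adjusted p = 0.0543). Leaving out each array in turn gave 23 to 29 splicing genes higher and 23 to 25 lower, 1424 to 1729 and 1216 to 1594 of all array genes, 10 core snRNP genes lower and 6 helicases higher each time, and a median of the splicing genes between 0.0563 and 0.113. That median was 0.0331 with arrays centred on their medians, 0.167 without the dimmest 25% of genes, -0.0087 with the length trend removed and -0.0068 with the narrower curve. Centring turned the balance over all array genes to 1478 higher and 1788 lower, and gave 24 and 25 splicing genes. Quantile normalization gave 29 and 25 splicing genes, 11 core snRNP genes lower, and 1618 and 1580 of all array genes. Asking for 2-fold as well left 136 genes higher and 127 lower, 0 and 4 splicing genes, 3 core snRNP genes lower, and 0 helicases in either direction. Without the dimmest 25% of genes, which held 15 splicing genes, 15 splicing genes were lower, against 24 with all genes kept. Across the 66 the change also followed the mean level, with a Spearman rho of 0.30, and why was not tested. Leaving out the 37 hedged descriptions left 10 higher and 13 lower.

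Removing the length trend turned the sign of 7 of the 66 splicing genes, of which 3 were called as deposited, 2 with the trend removed and 0 in both; the cause was not tested. Among these the brightest pre-mRNA splicing factor went to -0.146 and protein b to 0.148. Outside the 66, the gene similar to prp39 went to -0.068, or -0.0695 with the narrower curve. That curve also put protein b at 0.176, making 1 core snRNP gene higher, and the U5 gene of EF-2 type at -0.0065. Under the other alternatives 4 genes named by rule turned sign, which were the 4 nearest to 0, with 0 of them called as deposited, among them the brightest splicing factor at -0.0305 with arrays centred. Signal over background could not be judged, since no background values were used here.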
